A study of Mus musculus with 2 samples.

Results

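Glypicans and syndecans are the main families of proteoglycan core proteins that carry heparan sulphate at the cell surface. Glypicans are held in the membrane by a lipid (GPI) anchor, and syndecans cross it and bind scaffold and signalling proteins with a short cytoplasmic tail. Their sulphated sugar chains bind growth factors of the FGF, Wnt, BMP and Hedgehog families and matrix proteins, and in ES cells heparan sulphate is needed for the FGF signalling that precedes differentiation. The 9 core protein genes described here, 5 glypicans (Gpc1, Gpc2, Gpc3, Gpc4 and Gpc6) and 4 syndecans (Sdc1 to Sdc4), were chosen by symbol. All 9 were found among the 13620 genes of an RNA sequencing table.

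The table compares 1 library of polyadenylated RNA from mouse ES cells of genotype Fbxl10 T/T with 1 library from wild-type (WT) ES cells, both of the C57BL/6J strain. Fbxl10 is an older symbol of Kdm2b, whose protein binds unmethylated CpG islands as a subunit of a variant Polycomb complex. The labels do not say what the T allele alters. Both cultures were grown with serum and LIF on inactivated embryonic fibroblasts, which were removed by attachment before use. The libraries held 27109446 reads in listed genes for Fbxl10 T/T and 21198574 for WT. With 1 library per genotype, no difference has a replicate check or a test. "Higher" and "lower" describe these libraries, and 95% intervals (exact Poisson for levels, exact binomial for ratios and shares) cover counting error only.

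Kdm2b itself was at 10.6 CPM in Fbxl10 T/T and 102.5 CPM in WT. CPM here means read counts as normalised by the authors, with column sums of 1098136 in Fbxl10 T/T and 887645 in WT. All 10 ES cell markers were below their WT level in Fbxl10 T/T (8 of them at least 2-fold), with summed levels of 1062 CPM in Fbxl10 T/T and 5904 CPM in WT. Of 12 primitive and parietal endoderm markers, 10 were at least 2-fold higher and 1 lower, with sums of 47570 CPM in Fbxl10 T/T and 5113 CPM in WT. The largest terms of the Fbxl10 T/T sum were the matrix genes Col4a1 (18445 CPM), Sparc (14636 CPM) and Lama1 (10036 CPM). In WT they were at 1862, 1883 and 823.3 CPM. The lower marker was Thbd, at 20.0 CPM in Fbxl10 T/T and 47.1 CPM in WT. The 11 fibroblast markers measured summed to 683.4 CPM in Fbxl10 T/T and 1354 CPM in WT, with none 2-fold higher and 3 lower. A further marker, Lum, was not found by symbol among the listed genes. Of all genes at 1 CPM or more in either library, 14.8% were at least 2-fold higher in Fbxl10 T/T and 20.6% at least 2-fold lower. No measured marker was at 0 in either library. In bulk RNA, more cells of a type and more RNA per cell cannot be told apart, and the part of these cell types in the results below was not tested.

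In the Fbxl10 T/T library Gpc4 held a larger share of the glypicans, and Sdc4 of the syndecans, than in WT. Gpc6 also gained share among the glypicans. Gpc3, Gpc4, Gpc6 and Sdc4 were at least 2-fold higher, Gpc1, Gpc2 and Sdc2 at least 2-fold lower, and Sdc1 and Sdc3 lay in between, below their WT level. A gene was counted as 2-fold higher or lower when its log2 ratio of CPM + 0.5, Fbxl10 T/T over WT, was at least 1 or at most -1. This scale understates the change of low genes. Thus 4 of 9 members were higher, against 14.8% of the 13512 genes that reached 1 CPM in either library, and 3 of 9 were lower, against 20.6%. At a 4-fold threshold 2 members were higher, against 3.84% of genes, and 1 was lower, against 9.1%. At 1.5-fold 4 were higher (26.5% of genes) and 4 lower (28.7%). The exact binomial test of the reads, which compares libraries and not genotypes, called all 9 members at a Benjamini-Hochberg adjusted p of at most 0.05, 4 higher and 5 lower. It also called 42.5% of all 13620 genes higher and 41% lower, so such a call says little about a member. Over all genes the 2-fold split was 1994 higher and 2781 lower, and 1440 and 3254 after rescaling to a common upper quartile. The median log2 ratio of all genes was 0.02 as deposited, -0.11 with a common median and -0.21 with a common upper quartile. With the common median Sdc4 left the higher group, and with the upper quartile Gpc3 left it too and Sdc1 entered the lower group. No member changed direction.

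**Figure D1:**
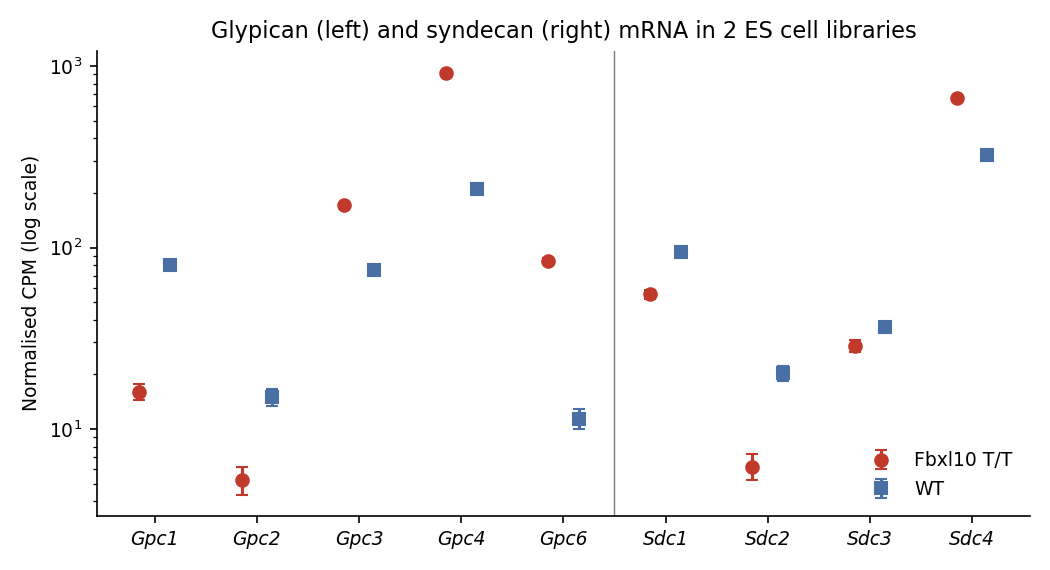
Normalised CPM (log axis) of the 5 glypican and 4 syndecan genes in the Fbxl10 T/T library (red circles) and the WT library (blue squares), with exact Poisson 95% intervals for counting error. Gpc3, Gpc4, Gpc6 and Sdc4 lie higher in Fbxl10 T/T, with Gpc4 at 915.4 against 208.9 CPM, and the other 5 genes lie lower.

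Gpc4 was the most abundant glypican in both libraries. This glypican modulates FGF and Wnt signalling, and mutations of the human gene cause Keipert syndrome. Its level was 915.4 CPM (interval 903.5 to 927.4) in Fbxl10 T/T and 208.9 CPM (203.2 to 214.8) in WT, from 22599 reads in Fbxl10 T/T and 4990 in WT. The ratio was 4.38 (4.25 to 4.52), the 442nd highest log2 ratio (2.13) of the 13512 genes. Gpc4 (ENSMUSG00000031119) lies on chromosome X from 49406097 to 49518429 in mm9, the build of all gene coordinates given without another build.

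Gpc3, whose human counterpart is mutated in the overgrowth disorder Simpson-Golabi-Behmel syndrome, is the neighbour of Gpc4 (ENSMUSG00000055653, chromosome X, 49625610 to 49967127). It was at 170.5 CPM (165.4 to 175.8) in Fbxl10 T/T and 74.7 CPM (71.3 to 78.3) in WT, a ratio of 2.28 (2.16 to 2.41). Both genes of this pair were thus higher, Gpc4 by the larger ratio. The intervals of the ratios do not overlap.

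Gpc6 had the largest ratio of the 9 members. Loss of the human gene causes omodysplasia, a skeletal growth disorder. Its level was 84.4 CPM (80.8 to 88.1) in Fbxl10 T/T and 11.4 CPM (10.1 to 12.8) in WT, a ratio of 7.41 (6.53 to 8.44) and the 163rd highest log2 ratio (2.84). Gpc6 (ENSMUSG00000058571) lies on chromosome 14 from 117325158 to 118378742. The remaining member of the family in mammals, Gpc5, is its neighbour there and was not among the members chosen. Gpc5 had 0 reads in Fbxl10 T/T and 32 reads (1.34 CPM) in WT. The exact binomial interval of its ratio begins at 8.46-fold lower in Fbxl10 T/T. Gpc5 and Gpc6 therefore lay on opposite sides of their WT levels.

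Gpc1, a widely studied FGF co-receptor, was lower. Its level was 16.0 CPM (14.5 to 17.7) in Fbxl10 T/T and 80.5 CPM (77.0 to 84.2) in WT, 5.02-fold lower (4.50 to 5.61), from 396 reads in Fbxl10 T/T and 1923 in WT. Only Gpc1 among the members was past 4-fold in this direction, and its log2 ratio of -2.29 was the 911th lowest of all genes. The gene (ENSMUSG00000034220) lies on chromosome 1 from 94728222 to 94756775. In GENCODE M21 (build GRCm38) 977 bases of its exons overlap Ankmy1 on the other strand. The strand setting is not given in the sources used here, so reads of the pair cannot be told apart there.

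Gpc2, first described in developing neurons as cerebroglycan, was at 5.23 CPM (4.36 to 6.21) in Fbxl10 T/T and 14.9 CPM (13.4 to 16.6) in WT, 2.86-fold lower (2.33 to 3.53). These are small counts of 129 reads in Fbxl10 T/T and 357 in WT. The gene (ENSMUSG00000029510, chromosome 5, 138714891 to 138721172) lies 606 bases from Stag3, a meiotic cohesin gene named here for its position, which was at 2.88 CPM in Fbxl10 T/T and 40.7 CPM in WT. GENCODE M21 also annotates a second coding gene, Gm43720, over 2376 bases of Gpc2 exons on the same strand. The level of Gpc2 is therefore uncertain, and the part of Stag3 or Gm43720 in it was not tested.

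Sdc4 was the most abundant syndecan in both libraries. It is a widely expressed component of focal adhesions that binds and activates protein kinase C alpha. Its level was 661.9 CPM (651.8 to 672.1) in Fbxl10 T/T and 323.8 CPM (316.6 to 331.1) in WT, a ratio of 2.04 (1.99 to 2.10). The log2 ratio of 1.03 lies just past the 2-fold threshold, and was 0.90 after rescaling to a common median and 0.79 with the upper quartile. Sdc4 (ENSMUSG00000017009) lies on chromosome 2 from 164250986 to 164268686.

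The other 3 syndecans were below their WT levels, by unequal amounts. Sdc2, typical of mesenchymal cells, was at 6.20 CPM (5.25 to 7.26) in Fbxl10 T/T and 20.3 CPM (18.5 to 22.2) in WT, 3.27-fold lower (2.72 to 3.95). Sdc1, the main syndecan of epithelia and plasma cells, was at 55.3 CPM (52.4 to 58.3) in Fbxl10 T/T and 94.5 CPM (90.6 to 98.5) in WT, 1.71-fold lower (1.60 to 1.83). The log2 ratio of Sdc1 was -0.77, and -1.01 with the upper quartile scaling. Sdc3, the most prominent syndecan of the nervous system, differed least, at 28.6 CPM (26.6 to 30.8) in Fbxl10 T/T and 36.5 CPM (34.1 to 39.0) in WT, 1.27-fold lower (1.15 to 1.41). In GENCODE M21, 415 bases of its exons overlap the antisense gene Gm26716. In mm9, Sdc2 (ENSMUSG00000022261) lies on chromosome 15 from 32850478 to 32964476, Sdc1 (ENSMUSG00000020592) on chromosome 12 from 8778196 to 8799884, and Sdc3 (ENSMUSG00000025743) on chromosome 4 from 130348452 to 130382233.

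**Figure D2:**
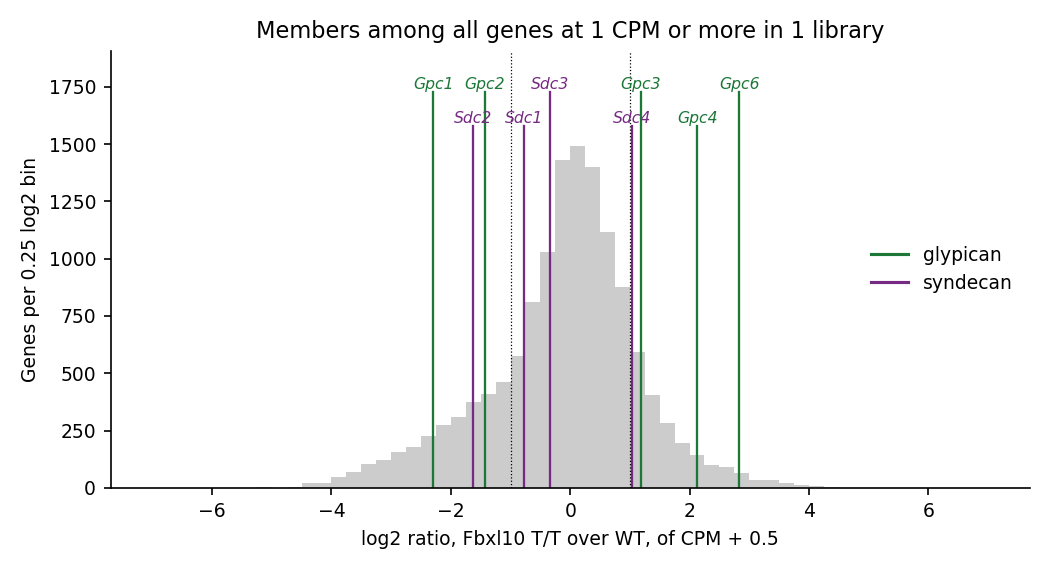
Histogram of the log2 ratio, Fbxl10 T/T over WT, of CPM + 0.5 for the 13512 genes at 1 CPM or more in either library (grey, bins of 0.25), with the glypicans (green lines) and syndecans (purple lines). Dotted lines mark the 2-fold thresholds; Gpc1 at -2.29 and Gpc6 at 2.84 are the outermost members, and Sdc3 at -0.35 is the innermost.

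The promoters of a few members are shown because the protein encoded by Kdm2b binds unmethylated CpG. RefSeq promoter windows (build GRCm38.p6) matched 6 of 9 members, Gpc2, Gpc3, Gpc4, Sdc1, Sdc3 and Sdc4. Gpc3 was higher, Gpc2 lower and Sdc3 less than 2-fold from WT. Their bases before the start site are printed 5′ to 3′ on the gene's strand with each CG in capitals. Gpc3 is chrX:52613975-52614224 on the minus strand and Sdc3 is chr4:130792287-130792536 on the plus strand. Gpc2 is chr5:138280006-138280187 on the minus strand, without the 68 bases of the window that GENCODE M21 places in an exon.
Gpc3: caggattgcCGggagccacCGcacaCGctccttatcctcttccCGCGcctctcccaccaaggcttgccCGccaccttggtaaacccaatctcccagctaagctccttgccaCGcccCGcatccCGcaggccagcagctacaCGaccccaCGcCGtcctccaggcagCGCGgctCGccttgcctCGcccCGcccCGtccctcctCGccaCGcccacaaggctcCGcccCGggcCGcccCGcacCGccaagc
Gpc2: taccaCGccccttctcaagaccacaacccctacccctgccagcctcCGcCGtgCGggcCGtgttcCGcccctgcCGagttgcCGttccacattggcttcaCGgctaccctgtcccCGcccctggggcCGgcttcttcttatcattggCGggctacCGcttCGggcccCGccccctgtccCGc
Sdc3: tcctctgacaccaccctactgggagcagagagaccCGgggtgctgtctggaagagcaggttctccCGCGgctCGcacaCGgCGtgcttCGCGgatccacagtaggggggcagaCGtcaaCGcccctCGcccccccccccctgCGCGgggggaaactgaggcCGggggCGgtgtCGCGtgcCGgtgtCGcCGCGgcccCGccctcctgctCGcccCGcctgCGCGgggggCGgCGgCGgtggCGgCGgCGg

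All 6 windows held more CG dinucleotides per 250 bases than the median of 6 over 32851 promoters of the table. Sdc3 had 32, more than 95.4% of all promoters, and Gpc3 had 25, more than 89.3%. Gpc2 and Sdc4 had 19 each, Gpc4 had 18 and Sdc1 had 10, more than 62.2% of all promoters. These counts cover whole windows, of which GENCODE M21 places all 250 bases in an exon for Gpc4, 73 for Sdc1 and 68 for Gpc2. The Sdc4 window touches no exon but lies inside the gene as GENCODE M21 annotates it, downstream of its first annotated base. The printed bases of Gpc2 hold 16. High counts thus occurred in Gpc3, which was higher, and in Sdc3, which lay between the thresholds. The lower member Gpc2 had more than 80.3% of all promoters, as did Sdc4, which was higher. The letters GATA, the core of the sites of GATA factors, were on either strand in 3 of the 6 windows (Gpc2, Gpc3 and Sdc4), against 53.6% of all promoters. The longer form AGATAA was in none of them, against 9.99%. The letters CACGTG were also in none of them, against 6.02%. No DNA methylation or factor binding at these windows was analysed here.

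Summed over its 5 members, the glypican family was at 1192 CPM in Fbxl10 T/T and 390.5 CPM in WT, a ratio of 3.05 (2.98 to 3.12). Without Gpc4 the sum was 276.2 CPM in Fbxl10 T/T and 181.6 CPM in WT, a ratio of 1.52 (1.46 to 1.58). The 4 syndecans summed to 752.0 CPM in Fbxl10 T/T and 475.0 CPM in WT, a ratio of 1.58 (1.55 to 1.62). Without Sdc4 the syndecan sum was below WT, at 90.1 CPM in Fbxl10 T/T and 151.3 CPM in WT, a ratio of 0.595 (0.565 to 0.628). The direction of the syndecan sum therefore rested on Sdc4.

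The share of each paralogue was taken first from the reads. Gpc4 held 76.8% (76.3 to 77.3) of glypican reads in Fbxl10 T/T and 53.5% (52.5 to 54.5) in WT. Gpc1 held 1.35% (1.22 to 1.48) in Fbxl10 T/T and 20.6% (19.8 to 21.5) in WT. Gpc3 held 14.3% (13.9 to 14.7) in Fbxl10 T/T and 19.1% (18.3 to 20.0) in WT. In WT its interval overlaps that of Gpc1, and per kb of exon Gpc3 (20.6%) stood above Gpc1 (14.3%). The share of Gpc3 was smaller in Fbxl10 T/T although its level was higher. Gpc6 held 7.08% in Fbxl10 T/T and 2.92% in WT. Gpc2 held 0.439% in Fbxl10 T/T and 3.83% in WT.

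Sdc4 held 88.0% (87.5 to 88.5) of syndecan reads in Fbxl10 T/T and 68.2% (67.3 to 69.0) in WT. The share of Sdc1 was 7.35% in Fbxl10 T/T and 19.9% in WT, that of Sdc3 was 3.81% in Fbxl10 T/T and 7.69% in WT, and that of Sdc2 was 0.824% in Fbxl10 T/T and 4.27% in WT. Each family therefore leaned more on the paralogue that already led it in WT. Of the reads of all 9 members, glypicans took 61.3% (60.9 to 61.7) in Fbxl10 T/T and 45.1% (44.4 to 45.8) in WT. The counting intervals of the 2 libraries do not overlap for any share printed here with its interval.

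**Figure D3:**
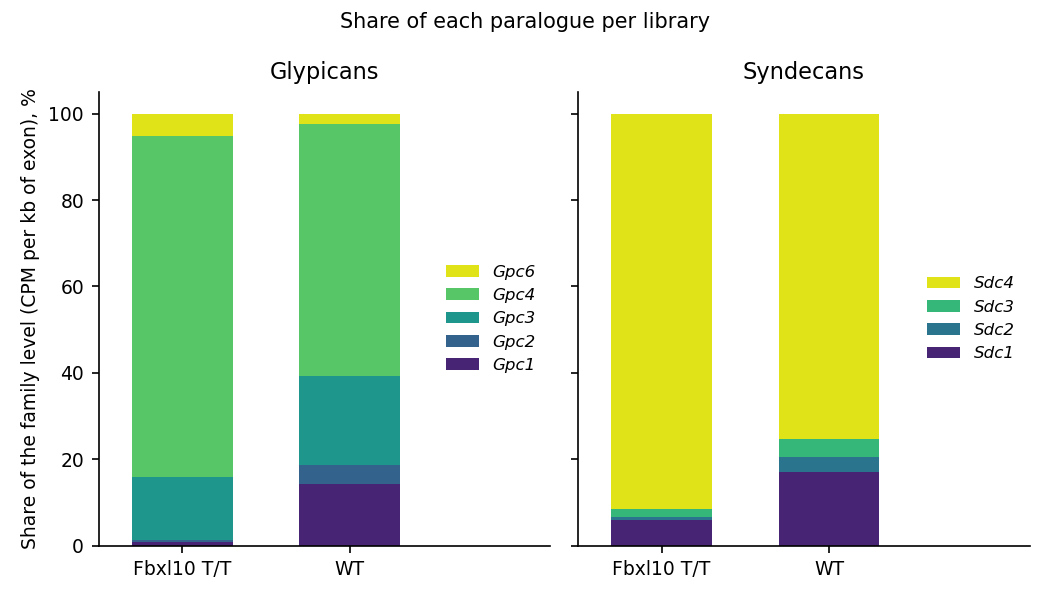
Share of each paralogue in the summed level of its family, in CPM per kb of exon, as stacked bars for Fbxl10 T/T (left bar) and WT (right bar), glypicans in the left panel and syndecans in the right. Gpc4 makes up 78.9% of the glypican level in Fbxl10 T/T and 58.5% in WT, and Sdc4 makes up 91.5% of the syndecan level in Fbxl10 T/T and 75.4% in WT.

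Longer mRNAs yield more reads, so levels of different members were compared per kb of exon (GENCODE M21). On this scale the order in Fbxl10 T/T was Gpc4 (345.3 CPM per kb), Sdc4 (269.3), Gpc3 (63.4), Gpc6 (23.1), Sdc1 (17.5), Sdc3 (5.76), Gpc1 (3.84), Gpc2 (2.02) and Sdc2 (1.76). In WT the order was Sdc4 (131.7 CPM per kb), Gpc4 (78.8), Sdc1 (29.9), Gpc3 (27.8), Gpc1 (19.3), Sdc3 (7.34), Gpc2 (5.78), Sdc2 (5.75) and Gpc6 (3.11). Gpc4 led in Fbxl10 T/T and Sdc4 in WT, and Gpc6 was the fourth in Fbxl10 T/T and the last in WT. Counting intervals of neighbours overlapped for Gpc2 and Sdc2 in both libraries and for Sdc1 and Gpc3 in WT. With no replicate library, the spread between cultures behind the rest of the order is unknown. By length, glypicans made up 59.8% of the summed level in Fbxl10 T/T and 43.5% in WT.

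Genes for the enzymes that build heparan sulphate chains on these core proteins lay on both sides of their WT levels, and the sulphotransferase gene Hs3st1 had the largest ratio among them. Of 7 genes that make or regulate the linker between protein and chain, 2 were higher (14.8% of all genes) and 1 lower (20.6%). The median log2 ratio of these 7 genes was -0.02, or 0.36 with a minimum of 5 CPM, against 0.02 over all genes. The galactosyltransferase gene B4galt7 (55.0 CPM in Fbxl10 T/T, 20.4 CPM in WT) and the glucuronyltransferase gene B3gat3 (108.9 CPM in Fbxl10 T/T and 43.0 CPM in WT) were higher. Pxylp1, whose product removes the phosphate that the kinase Fam20b places on the linker xylose, was lower, at 1.46 CPM in Fbxl10 T/T and 6.03 CPM in WT, while Fam20b was at 65.0 CPM in Fbxl10 T/T and 38.8 CPM in WT. The xylosyltransferases that start the linker, Xylt1 (0.648 CPM in Fbxl10 T/T, 1.09 CPM in WT) and Xylt2 (23.9 CPM in Fbxl10 T/T and 29.7 CPM in WT), were between the thresholds.

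Of the 5 genes of chain polymerisation, 2 were higher (14.8% of all genes), 1 lower (20.6%) and 2 in between (median 0.44). None was higher under either rescaling. The polymerase subunit gene Ext2 was at 219.0 CPM in Fbxl10 T/T and 105.2 CPM in WT, and its partner Ext1 at 120.1 CPM in Fbxl10 T/T and 88.2 CPM in WT. Extl2 was at 28.2 CPM in Fbxl10 T/T and 13.1 CPM in WT, and Extl3, which adds the first N-acetylglucosamine of the chain, at 94.0 CPM in Fbxl10 T/T and 98.2 CPM in WT. Extl1 had 1 read in Fbxl10 T/T and 66 in WT, 68.2-fold lower with a counting interval of 11.8 to 2735.

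Hs3st1, in the list of chain modification, encodes a 3-O-sulphotransferase that makes the antithrombin-binding site of heparan sulphate. Its level was 760.8 CPM in Fbxl10 T/T and 44.7 CPM in WT, a ratio of 17.0 (16.0 to 18.1) and the 16th highest log2 ratio (4.07) of all 13512 genes. Of the 9 genes of this list that were measured, 2 were higher (14.8% of all genes), 3 lower (20.6%) and 4 in between (median 0.29). The other 7 were not found by symbol among the listed genes. The N-deacetylase/N-sulphotransferase genes lay on opposite sides, with Ndst2 at 32.0 CPM in Fbxl10 T/T and 13.9 CPM in WT and Ndst1 at 14.6 CPM in Fbxl10 T/T and 39.9 CPM in WT. The 6-O-sulphotransferase gene Hs6st2 was at 1.62 CPM in Fbxl10 T/T and 4.52 CPM in WT. Hs3st3b1 was at 26.9 CPM in Fbxl10 T/T and 15.5 CPM in WT, and Hs3st6 had 2 reads in Fbxl10 T/T and 36 in WT.

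Genes that edit or cut the chains outside the cell were all between the thresholds. Sulf2, a 6-O-endosulphatase gene, was at 362.6 CPM in Fbxl10 T/T and 337.5 CPM in WT, in a direction that flips when the libraries are rescaled. Sulf1 was at 9.76 CPM in Fbxl10 T/T and 13.9 CPM in WT, and the heparanase gene Hpse at 1.05 CPM in Fbxl10 T/T and 1.84 CPM in WT. The median of the 3 genes was -0.49, and Hpse2 was not found by symbol among the listed genes.

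Genes for enzymes that release or process glypicans differed by large ratios in both directions. Of the 6 measured, 2 were higher (14.8% of all genes), 2 lower (20.6%) and 2 in between (median 0.31). Gdpd5, which encodes a phosphodiesterase that cuts GPI anchors, was at 171.5 CPM in Fbxl10 T/T and 22.4 CPM in WT, 7.64-fold higher. Furin, whose product cleaves glypican 3, was at 814.6 CPM in Fbxl10 T/T and 141.5 CPM in WT, 5.76-fold higher. Another proprotein convertase gene, Pcsk6, was 9.13-fold lower, at 11.0 CPM in Fbxl10 T/T and 100.6 CPM in WT, while Pcsk5 (4.46 CPM in Fbxl10 T/T and 3.68 CPM in WT) and Pcsk7 (34.6 CPM in Fbxl10 T/T and 26.6 CPM in WT) were close to WT. Notum, which encodes a secreted carboxylesterase that inactivates Wnt proteins and has been studied as a releaser of glypicans, was at 0.608 CPM in Fbxl10 T/T and 7.45 CPM in WT, 12.3-fold lower.

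Of the 7 genes of syndecan shedding, 1 was higher (14.8% of all genes), 1 lower (20.6%) and 5 in between (median 0.09). After rescaling to a common median 2 were lower and the median was -0.04. The sheddase gene Adam10 was at 97.1 CPM in Fbxl10 T/T and 15.8 CPM in WT, 6.15-fold higher, and Adam17 at 27.8 CPM in Fbxl10 T/T and 13.9 CPM in WT, just inside the threshold on the log2 scale (0.98). The matrix metalloprotease gene Mmp9 was 3.67-fold lower, at 19.0 CPM in Fbxl10 T/T and 69.8 CPM in WT. Mmp2 was at 17.7 CPM in Fbxl10 T/T and 33.5 CPM in WT, Mmp15 at 29.2 CPM in Fbxl10 T/T and 17.5 CPM in WT, and the inhibitor gene Timp3 at 33.6 CPM in Fbxl10 T/T and 48.1 CPM in WT.

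Of 12 measured genes for proteins at the syndecan tail, 3 were higher (14.8% of all genes), 2 lower (20.6%) and 7 in between (median 0.51). After rescaling to a common median 2 were higher and 3 lower. Sdcbp, which encodes syntenin, was at 145.9 CPM in Fbxl10 T/T and 47.0 CPM in WT, 3.10-fold higher. Pdcd6ip encodes ALIX, which works with syntenin and syndecans in the release of exosomes, and was at 441.6 CPM in Fbxl10 T/T and 202.5 CPM in WT. Prkca, the kinase gene linked to syndecan 4, was at 6.93 CPM in Fbxl10 T/T and 2.43 CPM in WT. The scaffold gene Cask was 3.28-fold lower, at 3.93 CPM in Fbxl10 T/T and 12.9 CPM in WT. Tiam1, which encodes an activator of Rac, was at 8.43 CPM in Fbxl10 T/T and 22.2 CPM in WT, and the kinase gene Fyn at 32.5 CPM in Fbxl10 T/T and 60.1 CPM in WT.

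**Figure D4:**
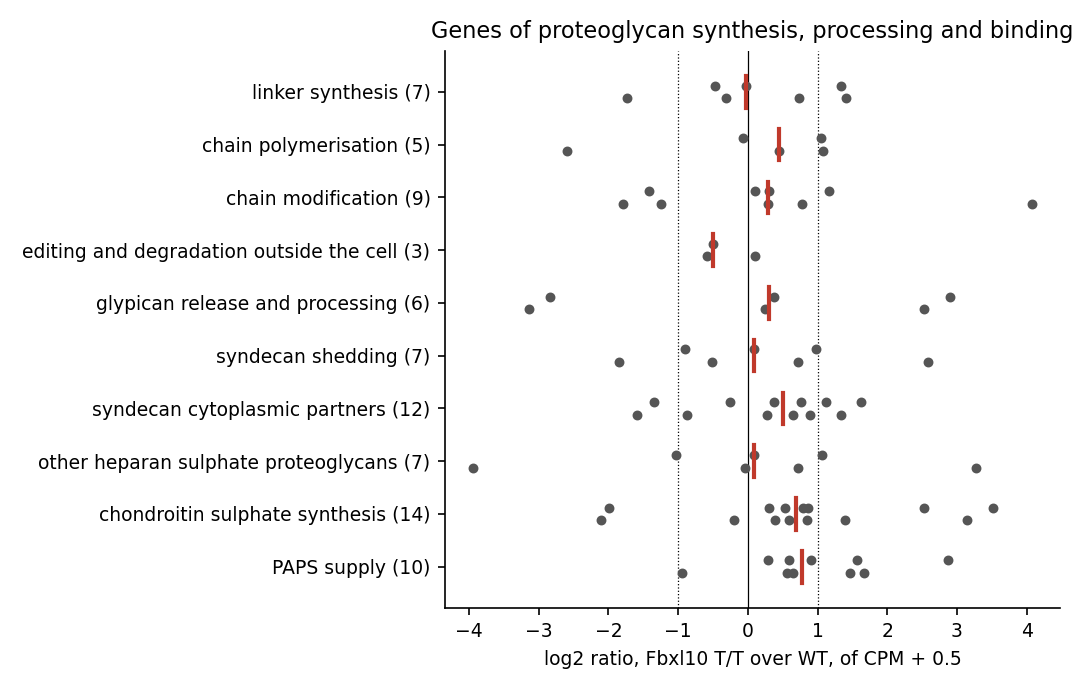
Log2 ratio, Fbxl10 T/T over WT, of CPM + 0.5 for each measured gene (points) of 10 lists around the proteoglycans, with the median of each list (red bar), the number of genes in brackets and dotted lines at the 2-fold thresholds. Each list has points on both sides of 0, and the largest ratio is that of Hs3st1, at 4.07 in the row of chain modification.

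Other proteoglycans that can carry heparan sulphate also diverged, with 2 of 7 higher (14.8% of all genes), 2 lower (20.6%) and 3 in between. Their median was 0.09, and -0.04 after rescaling to a common median, when Tgfbr3 left the higher group. Srgn, which encodes the granule proteoglycan serglycin, was at 2259 CPM in Fbxl10 T/T and 232.6 CPM in WT, 9.71-fold higher. Col18a1, which encodes collagen XVIII of basement membranes, was 15.5-fold lower, at 56.6 CPM in Fbxl10 T/T and 878.3 CPM in WT, the 60th lowest log2 ratio (-3.94) of all genes. The perlecan gene Hspg2 was at 1612 CPM in Fbxl10 T/T and 976.3 CPM in WT, and the agrin gene Agrn at 353.5 CPM in Fbxl10 T/T and 362.4 CPM in WT. Tgfbr3, which encodes betaglycan, was at 22.1 CPM in Fbxl10 T/T and 10.3 CPM in WT, and Cd44 at 61.5 CPM in Fbxl10 T/T and 126.1 CPM in WT.

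Of 14 measured genes of chondroitin sulphate synthesis, 4 were higher (14.8% of all genes), 2 lower (20.6%) and 8 in between (median 0.69). The sulphotransferase genes Chst15 (289.5 CPM in Fbxl10 T/T, 24.8 CPM in WT) and Chst11 (82.4 CPM in Fbxl10 T/T and 13.9 CPM in WT) and the polymerase gene Chsy3 (18.4 CPM in Fbxl10 T/T and 1.63 CPM in WT) were 11.7-, 5.95- and 11.3-fold higher. Chst3 had 3 reads in Fbxl10 T/T and 52 in WT, Chst7 had 11 in Fbxl10 T/T and 78 in WT, and Chsy1 was at 15.9 CPM in Fbxl10 T/T and 18.2 CPM in WT. Of 10 genes that supply the sulphate donor PAPS and the nucleotide sugars, 4 were higher, none 2-fold lower and 6 in between (median 0.78). The shares over all genes were again 14.8% and 20.6%. With a common median 1 gene of this list was lower. The sulphate transporter gene Slc26a2 was at 333.5 CPM in Fbxl10 T/T and 44.9 CPM in WT, 7.43-fold higher. Slc35b3, which carries PAPS into the Golgi, was at 25.9 CPM in Fbxl10 T/T and 7.83 CPM in WT, and Ugdh, which makes UDP-glucuronic acid, at 138.6 CPM in Fbxl10 T/T and 46.6 CPM in WT. Papss2 was the only gene of this list below WT, at 0.608 CPM in Fbxl10 T/T and 1.63 CPM in WT, while Slc35b2 (60.3 CPM in Fbxl10 T/T and 40.5 CPM in WT) and Uxs1 (19.8 CPM in Fbxl10 T/T and 16.1 CPM in WT) were between the thresholds.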

How the data were processed

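Reads were processed by the authors with TopHat 1.4.1, HTSeq 0.5.3p9 and edgeR on build mm9, per the submitters' processing notes, which do not assign each tool a role. Neither the gene annotation nor the strandedness of counting is known here. The authors deposited a normalised signal per gene and library, and a log2 ratio with WT on top. Every signal value (100%, tolerance 0.01 reads) was a whole multiple of a fixed step, 0.0405 CPM in Fbxl10 T/T and 0.0419 CPM in WT, which gave back the reads. The values are called normalised CPM, since the Fbxl10 T/T column sums to 1098136 and exceeds what plain CPM allows. The WT column sums to 887645, and rescaling both libraries to equal sums was not tried. Rows that repeat a gene (24706 rows, 13620 genes) were used once. Recomputed and deposited log2 ratios differed by at most 0.0028 in 9311 genes with at least 5 CPM in each library.

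Computed here were log2 ratios of CPM + 0.5, 2-fold counts among genes at 1 CPM or more in either library, sums, shares and 95% counting intervals. Reads carry no molecular identifiers, so PCR copies count as separate reads. Since the unit is no raw count, the binomial test of the recovered reads is an alternative only; it sets library against library. Exon lengths (13443 genes) and overlaps came from GENCODE M21, and promoters from RefSeq (GRCm38.p6). Members, lists and rules were chosen with earlier results of these data known. Named genes are all members, up to 3 at either end of each list, all genes of lists with up to 6 measured, and Kdm2b. Of the endoderm markers, Col4a1, Sparc and Lama1 were named for their high CPM and Thbd as the lower one. Alternatives were other pseudocounts, minimums, thresholds and scalings. The steps were tested on simulated reads. The software was Python 3.11.15 (numpy 2.4.6, pandas 2.3.3, scipy 1.17.1; figures with matplotlib 3.10.9).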

Additional observations from a re-analysis of the deposited data

How the results depend on the processing

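No paired analysis was possible because each genotype has a single library, and none could be left out. The counts of 4 higher and 3 lower members became 3 and 3 with a common median, 2 and 4 with a common upper quartile, 4 and 4 at a 1.5-fold threshold and 2 and 1 at 4-fold. They were unchanged with pseudocounts of 0.1 or 1 CPM, no minimum, a minimum of 5 CPM, or the binomial test added. The log2 ratio of the summed glypicans (1.61) was 1.48 with the common median and 1.37 with the upper quartile, and that of the syndecans (0.66) was 0.53 and 0.42. Per kb of exon, Gpc4 took 78.9% of the glypican level in Fbxl10 T/T and 58.5% in WT, and Sdc4 took 91.5% of the syndecan level in Fbxl10 T/T and 75.4% in WT. Per kb of the longest transcript, a setting chosen after seeing the data, Gpc4 took 76.3% in Fbxl10 T/T and 55.9% in WT, and Sdc4 took 91.5% in Fbxl10 T/T and 75.4% in WT. No member's log2 ratio changed sign under any of its 4 alternatives, but 11 of these 36 values moved by more than the counting error, as did 24 of 28 shares of the other 7 members taken per kb. The medians of small lists changed sign near 0: linker synthesis was at 0.36 with a minimum of 5 CPM, and syndecan shedding and other heparan sulphate proteoglycans were both at -0.04 with the common median.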

Other observations

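The genes within 500 kb of the glypican pairs (mm9 coordinates of the table) lay in both directions, and those named were chosen after their values were seen. Gpc3 and Gpc4 are 107180 bases apart on chromosome X. Of 7 other genes listed there, 1 was 2-fold higher (14.8% of all genes), 4 were lower (20.6%) and 2 in between. Plac1 was at 4.05 CPM in Fbxl10 T/T and 1.67 CPM in WT, Phf6 was at 1.34 CPM in Fbxl10 T/T and 10.6 CPM in WT, Hprt at 71.2 CPM in Fbxl10 T/T and 81.1 CPM in WT, and Hs6st2 at 1.62 CPM in Fbxl10 T/T and 4.52 CPM in WT. On chromosome 14, Gpc5 and Gpc6 are 401498 bases apart. Of 3 other genes there, 2 were higher (14.8% of all genes) and 1 lower (20.6%). With so few genes, these counts describe the neighbours only. Tgds was at 20.9 CPM in Fbxl10 T/T and 9.76 CPM in WT, Gpr180 was at 90.9 CPM in Fbxl10 T/T and 22.9 CPM in WT, and Sox21, a neural transcription factor gene, at 4.78 CPM in Fbxl10 T/T and 58.4 CPM in WT.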
